A study of Glycine max with 5 samples.

Results

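Phenylalanine ammonia-lyase (PAL) and 4-coumarate:CoA ligase (4CL) are the first and the last enzyme of the general phenylpropanoid pathway. PAL removes ammonia from phenylalanine to give cinnamic acid, cinnamate 4-hydroxylase (C4H) turns this into p-coumaric acid, and 4CL joins the acid to coenzyme A. The activated product feeds both the monolignols, the building blocks of lignin in cell walls, and the flavonoids, which in soybean and other legumes include the isoflavonoids of the root. Both enzymes are encoded by gene families, and the 4CL proteins of dicot plants are usually sorted into a class tied mainly to lignin, to which soybean 4CL1 and 4CL2 belong, and a class tied mainly to flavonoids, to which 4CL3 and 4CL4 belong.

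The genes were followed in soybean (Glycine max, genotype Bragg) seedlings aged 10 days, on 3 Affymetrix arrays of the root apical meristem, taken as 0.5 mm of root tip, and on 2 arrays of the rest of the seedling without meristem, which one label field calls leaf and which are called non-meristematic here. Plants of both groups grew at 28 °C under long natural days in potting mix without fertilizer. The series was made to find genes enriched in the root meristem, so that organ and meristem status differ together between the groups and cannot be told apart. The description field of each sample mentions embryos, against the other fields, and the groups were taken from titles and tissue.

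The members were all probe sets that the platform's annotation assigns to the single gene PAL2.1, 4CL, 4CL1, 4CL2, 4CL3 or 4CL4. There were 10 of them, for 6 genes, among 37593 probe sets in the table, which name 6031 genes singly. PAL2.1 had 3 probe sets, 4CL1 and 4CL2 had 2 each, and 4CL, 4CL3 and 4CL4 had 1 each. A probe set is a group of short probes for a transcript. In its name the ending _at alone marks probes designed to be unique, while _s_at marks probes that can match several transcripts and _a_at probes shared by transcripts of a gene. Of the 10, 5 ended in _at alone. Probe sets of the same gene are separate measurements of it, not replicates. The files used here hold no probe sequences, so none is shown.

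All values are MAS5 signals, an Affymetrix summary of brightness on a linear scale, given as mean ± SD with n = 3 for root meristem and n = 2 for non-meristematic tissue. The 25th percentile of an array served as its background, 17.9 to 22.5 on the root meristem arrays and 26.3 to 37 on the non-meristematic arrays. Differences are log2, root meristem minus non-meristematic, ± SE from limma, with p-values adjusted by Benjamini-Hochberg over the 30941 probe sets that lay above background on at least 2 arrays. All 10 members were among these. A probe set was called at an adjusted p below 0.05 together with a log2 difference of at least 1 in size. Where no array of a group lay above background, its arrays were set to background and the fold is given as a bound (at least). Such a bound concerns the group means and does not count the spread between arrays. Signals of different probe sets depend on their probes and are not compared as levels.

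Spearman correlations of signal across the tested probe sets were 0.965 to 0.976 within root meristem, 0.871 within non-meristematic tissue and 0.599 to 0.626 across the groups, so that the smaller group also had the wider spread. Markers bore out the labels in part. Of 9 leaf genes (CAB3, RCAALPHA, RCABETA, PETC, ATPC, CHLH, PSAD, VSPA and LOC547820) 8 were lower in root meristem, and the summed signal of these 8 was 593.3 to 630.9 there against 45253 to 47383. The exception was PSAD, whose brightest probe set was brighter in root meristem, with 4662 to 4996 against 2833 and 3178, and missed the minimum size (log2 0.67 ± 0.13). Its other 2 tested probe sets were called lower (log2 -4.81 ± 0.26 and -6.54 ± 0.39). On probe sets ending in _at alone, 5 of 7 leaf genes were lower. Of 3 root tip and division genes (PIN2A, H4 and LOC548079, the PCNA gene) all were higher, with a summed signal of 5560 to 6350 against 1054 to 1375. The 4 phloem genes SEOA, SEOC, SEOF and SEO-F3 were all lower, at 261.5 to 458.1 against 4374 to 4669. The seed genes PM16, PM29 and PM30 were higher, at 3305 to 10630 against 8.6 to 19.6, while the storage protein genes GY1 and CG-1 did not lie above background on any array. Of 2 genes of lignifying tissue, CCR was lower and PRX2 did not pass (log2 0.99 ± 0.14, just under the minimum size).

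The 4CL genes were called in opposite directions. The genes 4CL1 and 4CL2 were lower in root meristem on all of their 4 probe sets, by 6.07-fold to 7.53-fold on the 3 with signal above background in both groups and by at least 4.34-fold on the other. Only 1 of these probe sets, for 4CL1, ends in _at alone, while 3 end in _s_at or _a_at. Whether the 4CL1 and 4CL2 probe sets detect the same transcripts was not tested. The genes 4CL4 and 4CL were higher, 2.79-fold and 2.04-fold, and 4CL3 was 1.67-fold higher in the mean without passing. The gene PAL2.1 was 3.47-fold higher on 1 of 3 probe sets. Of the 10 members, 3 were called higher and 4 lower, and 3 did not pass. Over all tested probe sets 14.4% were called higher, 18.1% lower and 32.5% in either direction, so that a call in itself is common in this contrast. That split of 4452 higher and 5608 lower turned to 5719 and 4717 after quantile normalization and to 7668 and 4689 after median centring, while 4CL1 and 4CL2 were lower and 4CL4 higher under each scaling. The median log2 difference of the members was 0.41, beside 0.07 over all probe sets tested. The groups did not overlap at 8 of the 10 members, 4 in each direction, while 63.7% of all tested probe sets had groups that did not overlap.

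**Figure D1:**
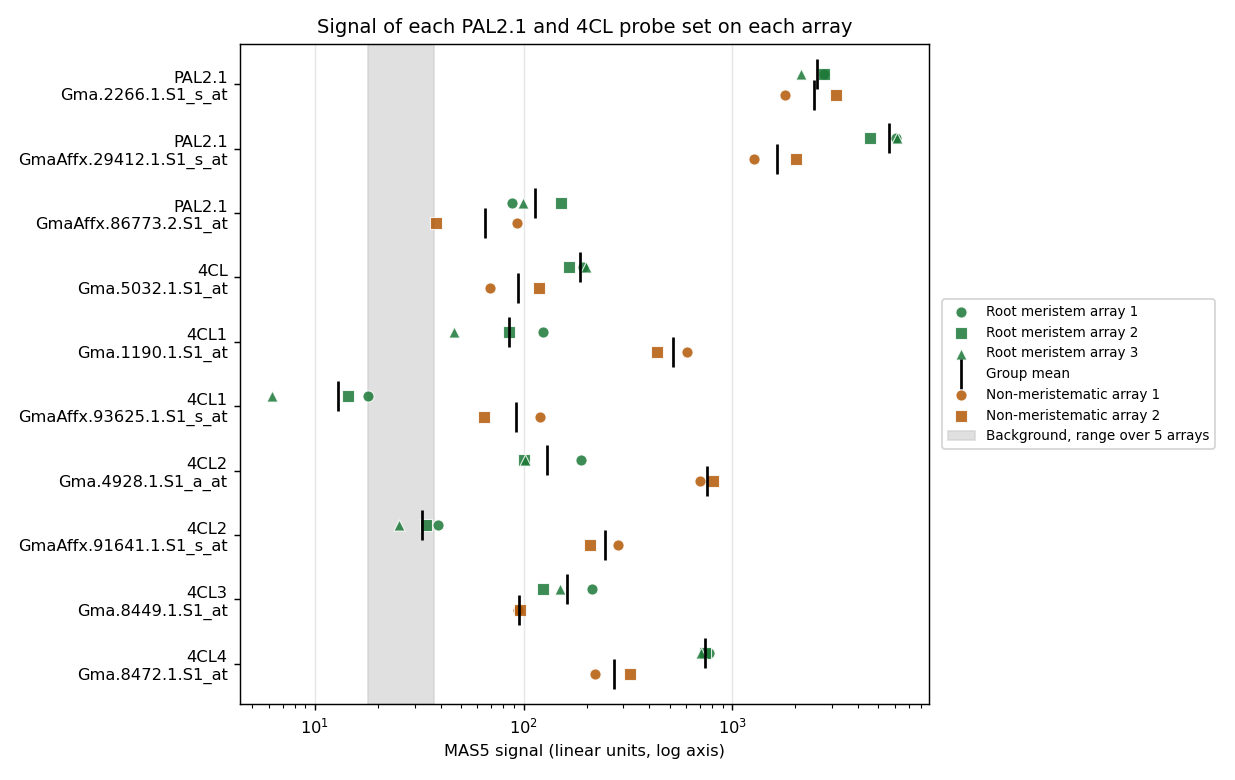
MAS5 signal (log axis) of each of the 10 PAL2.1 and 4CL probe sets on each array, with root meristem arrays in green above, non-meristematic arrays in brown below, group means as black bars and the range of array backgrounds, 17.9 to 37, in grey. The 4CL1 and 4CL2 signals lie to the right in non-meristematic tissue, the 4CL and 4CL4 signals to the right in root meristem, and the groups overlap at 2 of the 3 PAL2.1 probe sets.

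PAL2.1 encodes a phenylalanine ammonia-lyase, the enzyme that commits phenylalanine to the pathway. Its probe set GmaAffx.29412.1.S1_s_at had signals of 6060, 4573 and 6172 on root meristem arrays 1, 2 and 3 and of 1265 and 2019 on non-meristematic arrays 1 and 2. Every root meristem array thus lay above both others, at 5602 ± 893 against 1642 ± 534. The difference was 3.47-fold (log2 1.80 ± 0.24, adjusted p = 0.00198, limma), and 93.8% of all tested probe sets had a lower log2 difference.

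The other PAL2.1 probe sets did not pass. Gma.2266.1.S1_s_at had signals of 2735, 2740 and 2119 in root meristem and of 1787 and 3129 in non-meristematic tissue. The lowest and the highest value both came from non-meristematic arrays, and the log2 difference was 0.09 ± 0.26 (adjusted p = 0.816, limma) with a 95% interval of -0.54 to 0.72. Without non-meristematic array 1 it was -0.32, and without array 2 it was 0.49, so that its sign rested on which of the 2 was used. GmaAffx.86773.2.S1_at, the only PAL2.1 probe set ending in _at alone, had signals of 88.3, 151.4 and 98.9 in root meristem and of 92.5 and 38 in non-meristematic tissue.

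On that last probe set non-meristematic array 1 lay within the root meristem range and array 2 below it. The log2 difference was 0.89 ± 0.46 (adjusted p = 0.167, limma) with a 95% interval of -0.20 to 1.98. Without non-meristematic array 1 it was 1.53, and without array 2 it was 0.25, so that its size rested on which of the 2 was used. The 3 probe sets of PAL2.1 therefore gave 3 different sizes. Within each array, the log2 ratio of Gma.2266.1.S1_s_at over GmaAffx.29412.1.S1_s_at was -1.15, -0.74 and -1.54 on the root meristem arrays, against 0.50 and 0.63 on the non-meristematic ones, a shift of -1.71 between 2 probe sets listed for the same gene. The two-sided exact permutation p was 0.2. The test used doubles the smaller one-sided p, and with 3 arrays against 2 it can give nothing smaller. Both probe sets can match several transcripts, and whether they detect the same PAL genes was not tested.

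4CL1 encodes a 4-coumarate:CoA ligase that in soybean is known to accept sinapic acid, which most 4CL enzymes do not. Its probe set Gma.1190.1.S1_at had signals of 123.3, 84.7 and 46.4 in root meristem and of 605.3 and 435.3 in non-meristematic tissue. The highest root meristem array stood far below the lower non-meristematic one, although the root meristem arrays themselves spanned 2.66-fold. The means were 84.8 ± 38.5 against 520.3 ± 120, a 6.54-fold decrease (log2 -2.71 ± 0.43, adjusted p = 0.00374, limma).

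The second 4CL1 probe set, GmaAffx.93625.1.S1_s_at, was dim. Its signals were 18, 14.4 and 6.2 in root meristem, below background on all 3 arrays, and 119.8 and 64.7 in non-meristematic tissue. Root meristem has only an upper bound here, and with its arrays set to their background the signal was at least 4.34-fold lower there (log2 -2.91 ± 0.62 as measured, adjusted p = 0.0106, limma). Both 4CL1 probe sets had their highest signal on non-meristematic array 1.

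4CL2 encodes another ligase of the same class. Its probe set Gma.4928.1.S1_a_at had signals of 187.3, 100.1 and 101.4 in root meristem and of 700.6 and 806.6 in non-meristematic tissue. All arrays lay well above background and the groups were far apart, at 129.6 ± 49.97 against 753.6 ± 75.0. The decrease was 6.07-fold (log2 -2.60 ± 0.33, adjusted p = 0.00161, limma).

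On the other 4CL2 probe set, GmaAffx.91641.1.S1_s_at, the root meristem signals were 38.7, 34.1 and 25.2, and the non-meristematic signals 281.8 and 208.2. This probe set was dimmer, with root meristem arrays between 1.41 times and 1.72 times their background. The decrease was 7.53-fold (log2 -2.91 ± 0.33, adjusted p = 0.000973, limma). The 4CL1 and 4CL2 differences lay low in the series: 8.44% to 9.70% of all tested probe sets had a lower log2 difference. Leaf and phloem markers were lower in root meristem along with them, as given above, and their part in these results was not tested. In such bulk samples, fewer cells of a type and less RNA per cell cannot be told apart.

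4CL4 encodes a ligase of the class tied to flavonoids. Its probe set Gma.8472.1.S1_at, which ends in _at alone, had signals of 775.6, 740.5 and 709.9 in root meristem and of 219.3 and 321.5 in non-meristematic tissue. The root meristem arrays were within 1.09-fold of each other, the tightest of the 10 members. At 742 ± 32.9 against 270.4 ± 72.3 the difference was 2.79-fold (log2 1.48 ± 0.23, adjusted p = 0.00333, limma), and 91.0% of all tested probe sets had a lower one.

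4CL3 is the closest relative of 4CL4 among the members. Its probe set Gma.8449.1.S1_at had signals of 211.9, 124.3 and 149.7 in root meristem and of 93.4 and 95.8 in non-meristematic tissue. All root meristem arrays were higher, but they spanned 1.70-fold, and the smallest stood at 124.3 against 95.8. The log2 difference of 0.74 ± 0.30 did not pass (adjusted p = 0.0932, limma; 95% interval 0.02 to 1.46). It passed at 1.06 after quantile normalization (adjusted p = 0.0303, limma) and at 1.09 after median centring (adjusted p = 0.0249, limma). Those scalings also raised the median over all tested probe sets, from 0.07 to 0.30 and 0.43. Leaving out 1 array gave 0.53 to 0.91 for 4CL3.

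The gene listed as 4CL, a ligase with no number in its symbol, had signals on Gma.5032.1.S1_at of 191.6, 164.8 and 199.2 in root meristem and of 69 and 118.5 in non-meristematic tissue. There was no overlap, and non-meristematic array 2 was the nearer one. The difference was 2.04-fold (185.2 ± 18.1 against 93.8 ± 35; log2 1.03 ± 0.31, adjusted p = 0.0357, limma). It stood just over the minimum size, and the call was lost without any 1 of the root meristem arrays (log2 0.97 to 1.11, adjusted p = 0.0810 to 0.107) and without non-meristematic array 1 (log2 0.64, adjusted p = 0.0970). The root tip, division and seed markers given above were higher in root meristem along with 4CL4, 4CL and the called PAL2.1 probe set, and their part in these results was not tested.

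**Figure D2:**
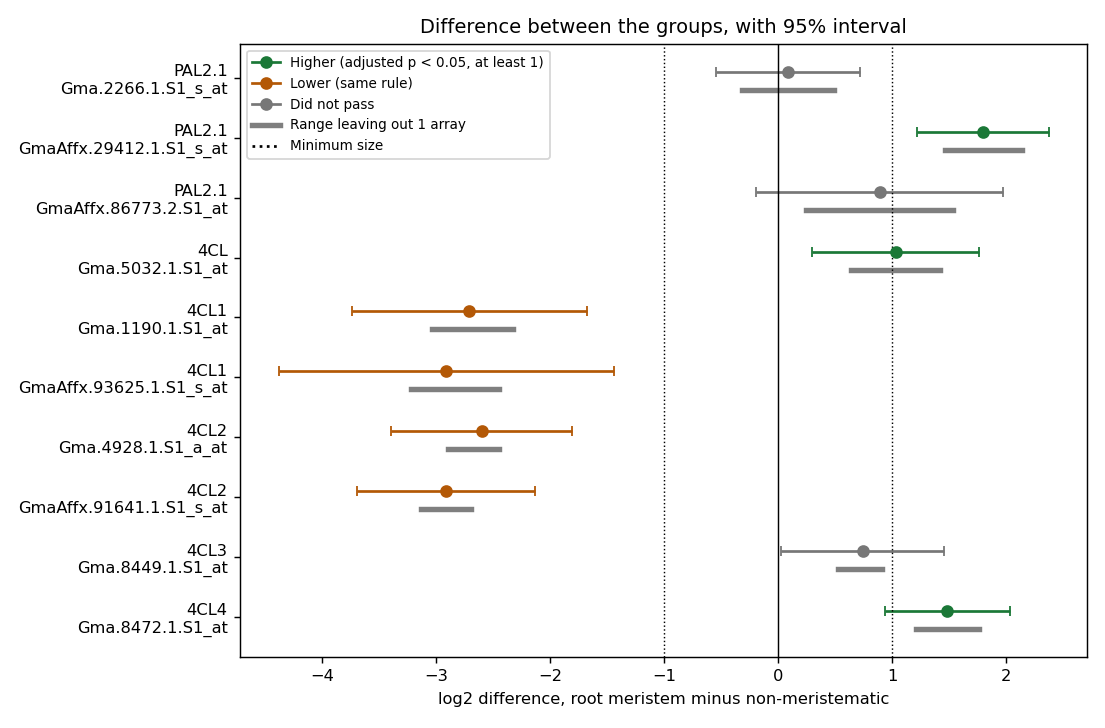
Log2 difference between root meristem and non-meristematic arrays for each member probe set, with its 95% interval from limma (thin bars) and the range of values when 1 array is left out (thick grey bars; the dim 4CL1 probe set GmaAffx.93625.1.S1_s_at could not be tested without a non-meristematic array). The 4CL1 and 4CL2 intervals lie below -1. The point values of 4CL4 and of the PAL2.1 probe set GmaAffx.29412.1.S1_s_at lie above 1, while the 4CL4 interval starts at 0.93 and that of 4CL at 0.30.

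Whether paralogs changed unequally was read from their signal ratio within each array, which scaling a whole array by a factor does not alter. All 45 pairs of member probe sets were compared with a two-sided exact permutation test. That exact test, which doubles the smaller one-sided p, could give no pair a p below 0.2. After Benjamini-Hochberg adjustment over the 45 the smallest value found was 0.290. The values therefore describe sizes only. Ratios with the dim 4CL1 probe set GmaAffx.93625.1.S1_s_at, which has only a bound in root meristem, are left out of the values that follow. The other 6 ratios of a 4CL1 or 4CL2 probe set over 4CL3 or 4CL4 were all lower in root meristem, by a log2 shift of -4.39 to -3.34, each at an exact permutation p = 0.2.

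The ratio of 4CL2 (Gma.4928.1.S1_a_at) over 4CL4 had opposite signs in the groups. Its log2 value was -2.05, -2.89 and -2.81 on the root meristem arrays, against 1.68 and 1.33 on the non-meristematic ones, a shift of -4.08. For 4CL1 (Gma.1190.1.S1_at) over 4CL4 the log2 values were -2.65, -3.13 and -3.94 against 1.46 and 0.44, a shift of -4.19. The ratio therefore changed sign between the groups in both cases, although the sign itself depends on the probes.

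Within the classes the shifts were smaller. The 2 ratios of the 4CL1 probe set Gma.1190.1.S1_at over a 4CL2 probe set shifted by -0.11 and 0.20, with exact permutation p-values of 0.8 and 0.6, which with so few arrays does not show that the 2 genes changed alike. 4CL3 over 4CL4 shifted by -0.74, from -1.23 and -1.75 in non-meristematic tissue to -1.87, -2.57 and -2.25 in root meristem (exact p = 0.2). The unnumbered 4CL shifted by -0.45 over 4CL4 and by 0.29 over 4CL3, and by 3.63 to 3.94 over the other 3 probe sets of 4CL1 and 4CL2. The called PAL2.1 probe set shifted by 0.31 over 4CL4 (exact p = 0.4).

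**Figure D3:**
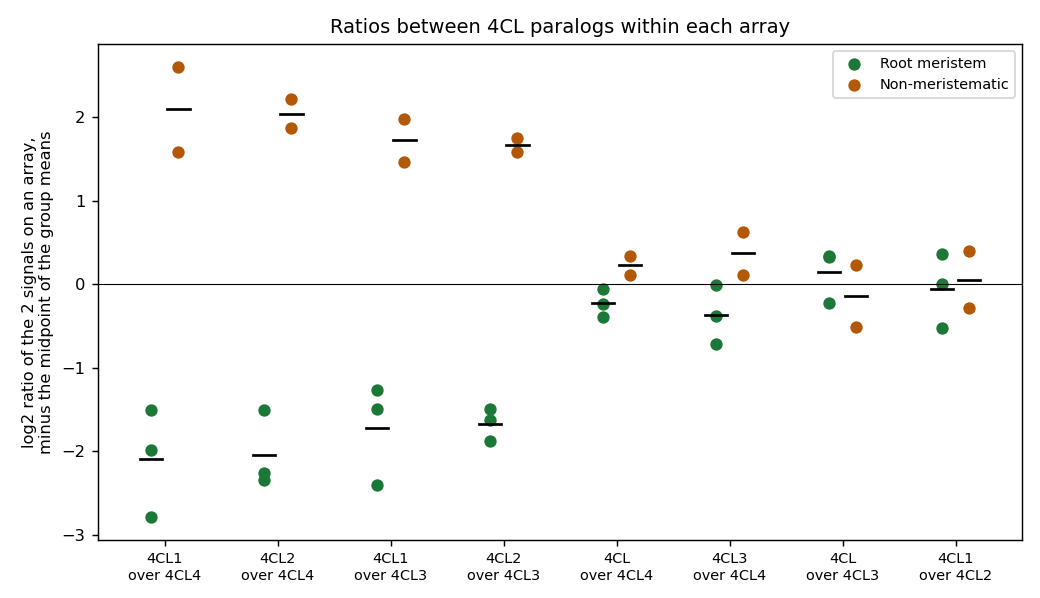
Log2 ratio of the signals of 2 4CL paralogs on each array, for the brightest probe set of each gene, plotted around the midpoint of the group means, with root meristem arrays in green, non-meristematic arrays in brown and group means as bars. The 4 ratios of 4CL1 or 4CL2 over 4CL3 or 4CL4 shift by -4.19 to -3.34, while 4CL1 over 4CL2 shifts by -0.11 with mixed points.

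C4H, whose enzyme acts between PAL and 4CL, passed in neither direction. It was the only other core gene found by symbol with a probe set of its own, and it had signals on Gma.3881.1.S1_s_at of 1858, 1483 and 1396 in root meristem and of 1463 and 1746 in non-meristematic tissue. The group ranges crossed, and the log2 difference was -0.03 ± 0.19 (adjusted p = 0.921, limma; 95% interval -0.49 to 0.43). A second C4H probe set gave -0.15 ± 0.20 (adjusted p = 0.582).

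Beyond 4CL, genes of the pathway were called in both directions. Genes are represented here by their brightest tested probe set (highest mean log2 signal), for which 18.6% of all 5652 genes tested were higher and 21% lower. Both lignin genes tested were lower. CCR, listed under the usual abbreviation of cinnamoyl-CoA reductase, which takes up the product of 4CL for lignin, was 2.64-fold lower (333.1 ± 69.1 against 867.5 ± 45.9, adjusted p = 0.00431). CYP98A2, a hydroxylase of the lignin route, was 2.12-fold lower (407.4 ± 131 against 840.1 ± 72.8, adjusted p = 0.0230), while 2 of its other 5 probe sets did not pass. On probe sets ending in _at alone, 1 of the 2 genes was lower.

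Of 9 tested isoflavonoid genes 8 were higher and 1 lower, but 7 of the 8 higher calls rested on probe sets that can match several transcripts or are shared by transcripts of a gene. With probe sets ending in _at alone, 5 genes could be tested, of which HIDH and IF7MaT were higher, IF7GT was lower, and CYP93A1 (log2 0.67 ± 0.54, adjusted p = 0.367, limma) and IFR (log2 0.07 ± 0.47, adjusted p = 0.919) did not pass. The median was 0.67 over these 5. On the brightest probe sets of all 9, their median log2 difference was 3.71 beside 0.20 over all genes, and it was 3.58 when each gene with a dim group was held at its bound. The isoflavone synthase genes IFS2 and IFS1 had log2 differences of 5.11 ± 0.28 and 4.79 ± 0.22, and CYP93A1, a hydroxylase of pterocarpan synthesis, was at least 11.96-fold higher on its brightest probe set. The lower one was the glucosyltransferase gene IF7GT (log2 -2.55 ± 0.33). Of 10 tested chalcone synthase, reductase and isomerase genes 6 were higher and 3 lower, and the median was 2.15 with or without bounds. All 6 higher calls were on marked probe sets of this kind, and with _at alone 4 of 8 genes were higher and 3 lower. CHR5 (at least 233-fold), CHR1 (log2 6.12 ± 0.25) and CHS8 (log2 4.66 ± 0.25) led the higher ones, and CHI2-A (log2 -3.29 ± 0.28), CHI3A1 (log2 -1.99 ± 0.31) and CHS1 (log2 -1.83 ± 0.49) were lower. The call of CHS1 held for its brightest probe set only, since the other 4 tested had the opposite sign, from 1.3 to 1.85, and none of them passed (adjusted p = 0.0982 to 0.240, limma). Of 4 tested flavonol and anthocyanin genes none was higher and 3 were lower: FLS1 (at least 54.4-fold), UGT78K1 (at least 13.8-fold) and ANS2 (log2 -2.18 ± 0.35), with a median of -3.57, or -2.99 with bounds. The fourth, F3H, did not pass on the probe set that stood for it (log2 -0.96 ± 0.42, adjusted p = 0.118, limma), while its other tested probe set was called lower (log2 -5.88 ± 0.23), so that the count and the median depend on which is taken.

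**Figure D4:**
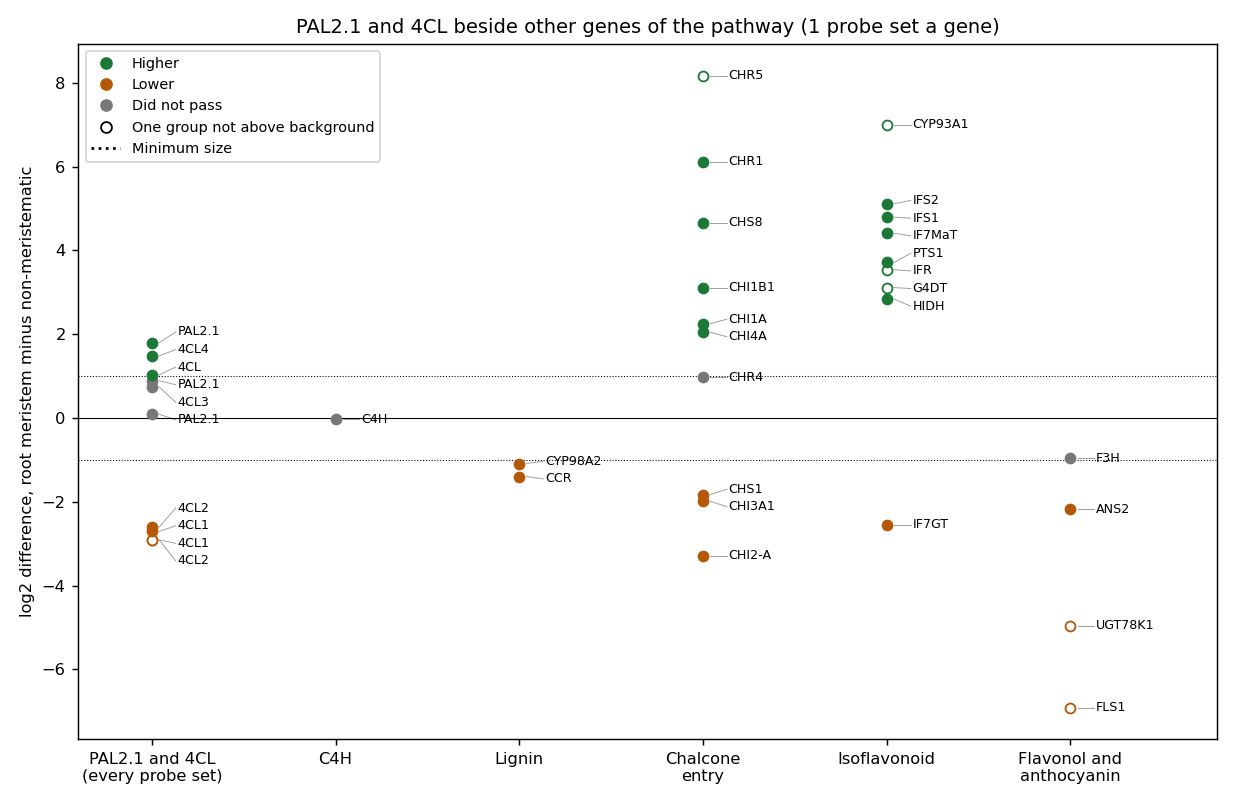
Log2 difference, root meristem minus non-meristematic, of every PAL2.1 and 4CL probe set (left column) and of other pathway genes by list, 1 point a gene at its brightest tested probe set. Colours mark the call, open points mark genes with one group not above background on any array, whose fitted value is no bound, and the dotted lines mark the minimum size of 1. C4H lies at -0.03, both lignin genes lie below -1, and 8 of 9 isoflavonoid genes lie above 2, 7 of them on probe sets not ending in _at alone.

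The genes with the most similar profiles were sought among tested probe sets with a symbol other than a LOC number. The measure was the root mean square difference of log2 signals over the 5 arrays after each profile was centred on its own mean, and with 5 arrays it mostly follows the group difference. For 4CL4 the nearest were SFERH-4 (0.04), FVE (0.08) and COPZ2 (0.11), against a median of 0.97 over all candidates. For 4CL they were both probe sets of PDIL-2, a protein disulfide isomerase gene (0.01 and 0.06), and IDH (0.08), against 0.88. For the called PAL2.1 probe set they were FVE (0.18), BIP4 (0.19), an ER chaperone gene, and USP1 (0.21), against 1.11.

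FVE was near both PAL2.1 and 4CL4: its root meristem signals were 600.2, 598.1 and 604.2, and its non-meristematic signals 158.3 and 245. For 4CL3 the nearest were AT-1SNBP (0.15), ASP1 (0.15) and DIM1 (0.16), against a median of 0.78. For 4CL1 they were UGT1 (0.16), MET2 (0.18) and GLYI-17 (0.26), against 1.56. UGT1, MET2 and GLYI-17 all had their lowest signal on root meristem array 3 and their highest on non-meristematic array 1, as 4CL1 did. Choosing genes by profile over the same arrays favours such a likeness. For 4CL2 they were SPK-2 (0.15), CRY2B (0.17), a cryptochrome gene, and NARK (0.19), the receptor kinase gene of nodule autoregulation, against 1.49, and NARK lay below background on all root meristem arrays.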

How the data were processed

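The deposited table holds intensity values, MAS5 signals on a linear scale for 37593 probe sets on 5 arrays, made by the authors with MAS5 per the submitters' processing notes. Its version and scaling target, and any detection calls, were not given in the sources used here. Values were floored at 0.1 and put on the log2 scale without scaling between arrays. Probe sets brighter than the 25th percentile of the array on at least 2 arrays entered limma 3.58.1 under R 4.3.3 (lmFit, then trended eBayes; 3 residual and 3.68 prior degrees of freedom), with Benjamini-Hochberg adjustment over all of them. The procedure was tested on simulated data. The number of arrays limits the precision. The titles speak of biological replicates and do not say how these were made. The p-values reflect how these samples vary, in which technical variation can have a part.

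Gene names came from the platform annotation, with 1 gene for 8677 probe sets, several for 370 and none listed for 28546. By Entrez number 8652 matched RefSeq genes of Glycine_max_v4.0, used for names and synonyms. All member probe sets are named. Of each pathway list, up to 3 called genes per direction with the largest log2 difference are named, with C4H and the nearest 3 profiles per gene. Members and lists were chosen with earlier results of these data known. Alternatives were other scaling, floors, filters and variance models, a replicate block, and leaving out each array. Each list gene stood by its brightest tested probe set.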

Additional observations from a re-analysis of the deposited data

How the results depend on the processing

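The 4 calls of lower 4CL1 and 4CL2 signal and the higher calls of 4CL4 and GmaAffx.29412.1.S1_s_at (PAL2.1) held under every alternative that tested them, with log2 differences of -3.22 to -2.25, 1.21 to 1.84 and 1.46 to 2.15. Without either non-meristematic array the dim 4CL1 probe set fell under the filter. Under the replicate block 4CL lost its call (log2 0.97, adjusted p = 0.141, limma), and 7589 probe sets were called in place of 10060. Root meristem array 3 has no array of its number in the other group, so it did not enter the log2 differences under the block. These equalled the differences found without that array, so the block is no separate check of their size. The replicate numbers 1 and 2 are shared by the groups, but the titles do not say whether they pair samples. Correlations of deviations between arrays of the same number were 0.10 and -0.09. The deviations of only 2 non-meristematic arrays mirror each other, so these values cannot show whether samples are paired. Leaving out 1 array gave 0.64 to 1.42 for 4CL, 0.25 to 1.53 for GmaAffx.86773.2.S1_at and -0.32 to 0.49 for Gma.2266.1.S1_s_at. After quantile normalization Gma.2266.1.S1_s_at was at -0.074 and 4CL3 passed at 1.06. After median centring 4CL3 (1.09) and GmaAffx.86773.2.S1_at (1.24) passed, so that 5 members were higher, and 7668 probe sets were called higher in place of 4452 (lower: 4689 in place of 5608); quantile normalization gave 5719 higher and 4717 lower. The median over all tested probe sets, 0.07 before, was 0.43 after median centring and 0.30 after quantile normalization. Before scaling, non-meristematic arrays 1 and 2 had median signals of 111.6 and 103.2, above the 77.8 to 87.4 of the root meristem arrays. Median centring evens these out and so raised all log2 differences by the same amount. For 4CL4 it was from 1.48 to 1.84, and for 4CL1 (Gma.1190.1.S1_at) from -2.71 to -2.35. Why the array medians differed was not tested, nor was the cause of the changes after quantile normalization. Leaving out 1 array gave 2 to 3 members higher and 3 to 4 lower. Of the 26 pathway genes tested, 14 were higher and 9 lower. On probe sets ending in _at alone 20 of these genes could be tested, with 6 higher and 8 lower. Leaving out 1 array gave 14 to 15 higher and 6 to 8 lower, and requiring every probe set of a gene to be called gave 12 and 7.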

Other observations

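Probe sets listed for several PAL or 4CL genes belong to no single gene and were left out above. The one listed for both 4CL3 and 4CL4 had signals of 739.1, 562.3 and 599.3 in root meristem and of 253.3 and 295.8 in non-meristematic tissue, which did not overlap (log2 1.2 ± 0.22, adjusted p = 0.00603, limma). Of 2 probe sets listed for the 3 genes PAL1.1, PAL1.2 and PAL1.3, the brighter had signals of 1054, 1232 and 825.8 in root meristem and of 1733 and 815.9 in non-meristematic tissue, with the group ranges overlapping (log2 -0.22 ± 0.35, adjusted p = 0.652, limma). The dimmer one had signals of 28.7, 31 and 19.2 against 34 and 44.2 (log2 -0.59 ± 0.43, adjusted p = 0.318, limma).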
